A study of Mus musculus with 48 samples.

Results

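Gene expression was compared between 2 mouse striatal progenitor cell lines that were treated alike, the wild-type line STHdhQ7 (3 samples, the group Q7SST) and the huntingtin mutant line STHdhQ111 (3 samples, Q111SST). These 6 of the 48 RNA-Seq samples of the series were taken by their labels, and no measured value was used to choose them. Both lines carry the strain label C57BL/6, were seeded at 33 °C and were then kept for 24 hours in serum-free medium with vehicle, so the wild-type cells were starved of serum as well. Replicates 1, 2 and 3 of each line were collected on the same days and in the same time slots. The other 42 samples are STHdhQ111 cells given 1 of 14 compounds, and they serve here only as a further range of values for the mutant line. The cells are conditionally immortalized, and each genotype is represented by 1 line, so a difference between the genotypes and a difference between the lines cannot be told apart. Nothing in the labels says that the 3 samples of a line came from separate thaws, so the spread between replicates may be technical. The p-values from limma rest on this spread pooled over all 16 conditions of the series, not on the 6 compared samples alone.

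Huntington's disease follows from an expanded run of glutamine codons in the huntingtin gene, and neurons of the striatum are among the cells most affected. Striatal progenitor lines of this kind come from the embryonic ventral forebrain and do not mature into neurons in serum-free culture. Type I interferon signals through a paired surface receptor, the Jak kinases and transcription factors that include IRF9, and it raises a set of antiviral genes that most cell types share. The extracellular matrix, the adhesion molecules that hold cells to it and to each other, and the respiratory chain, which is encoded in part by mitochondrial DNA, are the other systems described below.

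The deposited values are the authors' normalized abundances on a log2 scale, and a difference is the STHdhQ7 value minus the STHdhQ111 value. Values are not divided by gene length, so they are compared between samples and never between genes. The depth per sample is unknown. Of 13409 genes tested with limma and Benjamini-Hochberg adjustment, 7483 (55.8%) were called at an adjusted p under 0.05, 3916 of them (29.2%) higher and 3567 (26.6%) lower in STHdhQ7 cells. Calls that also passed 1 on the log2 scale numbered 444 higher (3.31%) and 286 lower (2.13%). In 1669 genes (12.4%) all 3 STHdhQ7 samples lay above all 45 STHdhQ111 samples, compounds included, and in 1438 (10.7%) they lay below them, 3107 (23.2%) in all. Because the background of calls is this large, counts over gene lists below are to be read against 29.2% higher and 26.6% lower. This holds also where these shares are not repeated, and a list near them does not stand out. The largest rise was 9.28 and the largest fall 2.84, and 26 genes rose by more than 3 while 0 fell by more than 3. The unit holds low values close together, so sizes of rises and falls are not compared with each other. With 3 samples against 3, an exact permutation test over the samples of a single gene cannot give a p below 0.1.

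Huntingtin, the gene that differs between the lines by design, was measured in every sample. Htt (chromosome 5, 34761740 to 34912534, plus strand of GRCm38) was at 9.29, 9.01 and 9.03 in the STHdhQ7 samples and at 8.10, 8.10 and 7.92 in the STHdhQ111 samples. The groups did not overlap, and the difference was 1.07 (SE 0.077, adjusted p = 5.3e-15 from limma). Reads of the mouse transcriptome do not report the length of the glutamine repeat, so this value does not check the labels. Both lines are stated to be female. Xist, the RNA of the inactive X chromosome, lay between 11.33 and 12.20 in all 6 samples, and Ddx3y and Eif2s3y of the Y chromosome lay at -2.01 or less in all of them. STHdhQ7 replicate 1 stood apart from replicates 2 and 3. It lay more than 1 above both in 14 genes, 11 of them members of the interferon lists, and more than 1 below both in 22 genes, 7 of them adhesion or matrix members and 2 neural. STHdhQ7 replicate 2 had 1 gene in each direction and replicate 3 had 4 and 0. The 22 genes also include 5 short noncoding RNAs (Rmrp, Rn7s1, Rn7s2, Rn7sk and Rnu2-10).

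Interferon genes were lower in STHdhQ7 cells. Of 129 tested members (146 in the table) of the interferon lists, 104 (80.6%) fell and 8 (6.2%) rose, with a median difference of -0.97 against 0.00 over all genes. Of the 129, 62 fell by more than 1, against 2.13% of all genes. In 46 of the 129 all STHdhQ7 samples lay below all 45 STHdhQ111 samples, against 10.7% of all genes. The plot of differences by list shows that the shift differed between the layers of the pathway, and it is described from ligand to target.

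**Figure D1:**
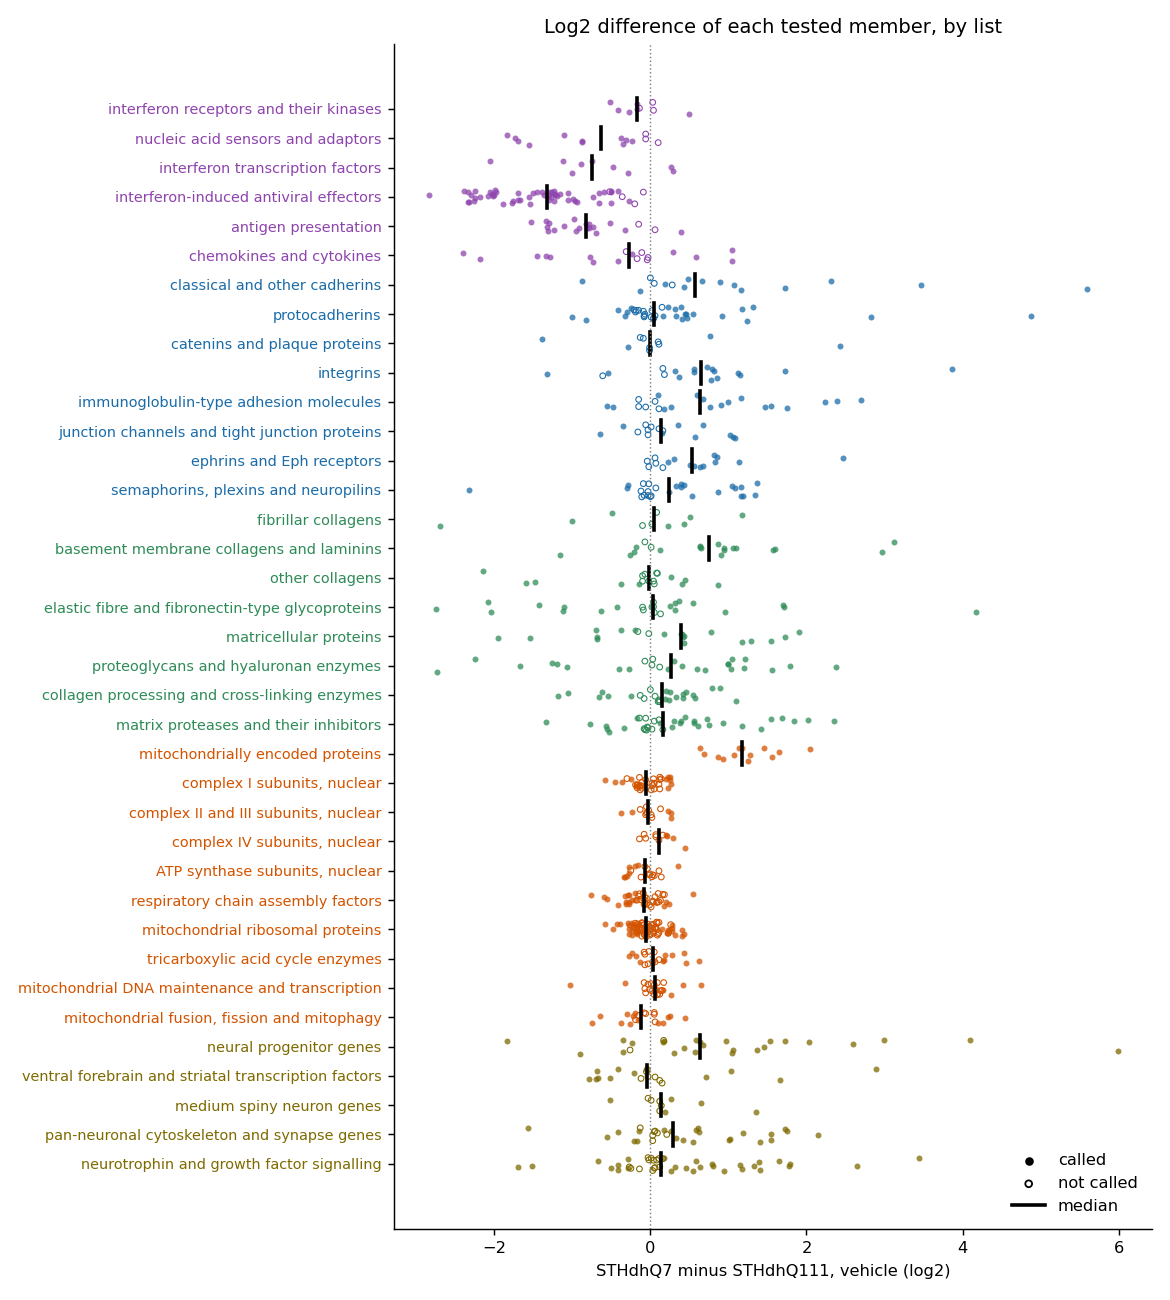
Log2 difference (STHdhQ7 minus STHdhQ111, horizontal axis) of each tested member of 37 gene lists (rows), coloured by family, with filled points for called members, open points for the others and a bar at the median. The 58 antiviral effectors have a median of -1.33 and lie wholly below 0, while the 13 mitochondrially encoded genes have a median of 1.18 and lie wholly above 0.

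The 5 interferon ligand genes in the table were all under the minimum mean for testing, so no ligand message was compared. The receptors moved little. Ifngr1 and Ifngr2 encode the chains of the interferon gamma receptor and went opposite ways. Ifngr1 was at 9.19, 9.09 and 9.05 in STHdhQ7 and at 8.57, 8.64 and 8.64 in STHdhQ111 (difference 0.49, SE 0.062, adjusted p = 1.1e-08). Ifngr2 was at 8.85, 8.82 and 8.82 against 9.35, 9.34 and 9.37 (difference -0.52, SE 0.056, adjusted p = 2.4e-10). Neither gene's groups overlapped. Ifnar1, a chain of the type I receptor, fell by 0.17 on the log2 scale (SE 0.052, adjusted p = 0.0047), a call that was lost when only the 6 samples compared were fitted. Over the 9 receptor and kinase genes, 5 fell, 1 rose and the median was -0.17.

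The sensors that detect foreign or misplaced nucleic acid fell further. Of 14 tested, 11 fell, 0 rose and the median was -0.63. Ifih1, which encodes the double-stranded RNA sensor MDA5, was at 7.43, 6.45 and 6.70 in STHdhQ7 and at 8.79, 8.58 and 8.72 in STHdhQ111 (difference -1.84, SE 0.17). Mb21d1 encodes the DNA sensor cGAS. Its values were 6.43, 6.05 and 6.28 against 8.05, 7.98 and 7.84 (difference -1.70, SE 0.082, adjusted p = 3.3e-20). In both genes every STHdhQ7 sample was below every STHdhQ111 sample, and below every compound sample as well. Ddx58 (RIG-I), an RNA helicase of the same family as MDA5, fell by 1.56. Dhx58 (LGP2), another of that family, was at 7.42, 6.24 and 6.39 against 8.47, 8.22 and 8.55, with STHdhQ7 replicate 1 the highest of its group (difference -1.74, SE 0.24). Tmem173, which encodes the adaptor STING downstream of cGAS, and the kinase gene Tbk1 did not pass the test, with differences of -0.06 (adjusted p = 0.41) and 0.10 (adjusted p = 0.17).

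Among the 9 transcription factors of the pathway 7 fell and 2 rose. Irf7, the factor that amplifies type I interferon production and is itself induced by interferon, was at 8.91, 7.81 and 8.01 in STHdhQ7 cells and at 10.44, 10.07 and 10.39 in STHdhQ111 cells. Replicate 1 was the highest of the STHdhQ7 samples, and the groups did not overlap (difference -2.06, SE 0.24, adjusted p = 1.6e-09). Irf9, a DNA-binding subunit of the factor complex that type I interferon activates, fell by 1.00 on the log2 scale and Irf1 by 0.89. Irf3, the factor that is present before a signal and is activated by phosphorylation, rose by 0.29 (SE 0.085, adjusted p = 0.0039).

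The antiviral effectors were the most uniform layer. All 58 in the table were tested, 54 (93.1%) fell and 0 rose, 42 fell by more than 1, and the median difference was -1.33. Ifit1 encodes a protein that binds viral RNA caps. It was at 10.03, 8.99 and 9.35 in STHdhQ7 and at 12.40, 12.13 and 12.37 in STHdhQ111 (difference -2.84, SE 0.20, adjusted p = 1.6e-15). This was the largest fall of all genes tested, and the STHdhQ7 samples also lay below the lowest compound sample, at 10.52. Samd9l, a restriction factor that limits poxviruses, was at 8.42, 7.75 and 7.96 against 10.44, 10.32 and 10.37 (difference -2.33, SE 0.14). Oasl2, of the oligoadenylate synthetase family, was at 8.64, 7.34 and 7.53 against 10.38, 10.02 and 10.14 (difference -2.34, SE 0.26). In Oasl2 the lower pair of STHdhQ7 samples lay below the compound samples, which began at 7.95, and replicate 1 lay among them. Oas2, a relative of Oasl2, was at 5.14, 4.02 and 4.13 against 5.17, 4.76 and 4.92 and did not pass the test, with replicate 1 among the STHdhQ111 values (difference -0.52, adjusted p = 0.096). Pml, a nuclear body protein gene, did not pass it either (difference -0.09, adjusted p = 0.39). Ifit, Gbp, Oas and H2 genes have close relatives, and 50-base reads may be shared among them, so single values in these families are uncertain.

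The mean level over the 58 effectors was 7.62 in STHdhQ7 replicate 1, 6.84 in replicate 2 and 6.99 in replicate 3, against 8.65, 8.43 and 8.59 in the STHdhQ111 samples. Replicate 1 stood nearest to the mutant line, and the groups did not overlap. Over the single compound samples the mean level ran from 7.45, below STHdhQ7 replicate 1, to 9.16. Averaged over replicates, it was lowest with cyproheptadine and highest with nortriptyline. Without STHdhQ7 replicate 1, 55 effectors were called and their median difference was -1.58. Without replicate 2 or replicate 3, 52 were called in each case, with medians of -1.18 and -1.27, and with only the 6 compared samples in the fit 57 were called.

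**Figure D2:**
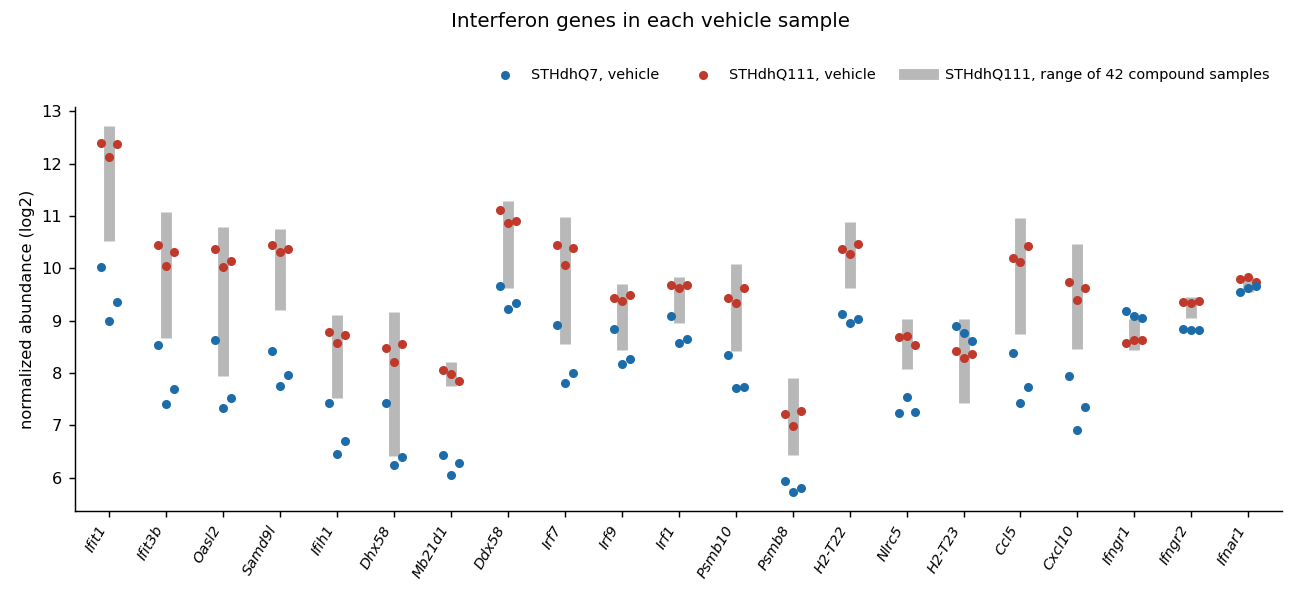
Normalized abundance (log2, vertical axis) of 21 interferon genes in each STHdhQ7 vehicle sample (blue) and STHdhQ111 vehicle sample (red), replicates 1 to 3 from left to right, over the range of the 42 STHdhQ111 compound samples (grey). In Ifit1 the blue points reach up to 10.03 and the red points begin at 12.13, while in Ifngr1 the order is reversed.

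The promoters of these effectors were read for a sequence that many, but not all, of them hold. Interferon-stimulated response elements bind the complex that holds IRF9 as well as other IRF proteins, and hold a pair of GAAA runs. The motif searched, on both strands, was GAAA, any 2 bases and GAAA again, in the RefSeq promoters of GRCm38.p6 (250 bases before to 50 after a start). The counts are of genes with any match, and overlapping matches run together in the capitals below. The motif was present in 383 (3.74%) of the 10240 tested genes that have a promoter in that set, in 37 (37%) of 100 interferon list members, and in 25 (55.6%) of 45 effectors. The share was 55.9% (19 of 34) in the effectors that fell by more than 1 and 54.5% (6 of 11) in the rest. Of the receptor and kinase genes 0 of 8 held it. These stretches belong to the effectors with the largest falls that hold the motif before their start, chosen after their values were seen, written along the gene's strand with the motif in capitals.
Ifit1, chr19:34640784-34640833 (+): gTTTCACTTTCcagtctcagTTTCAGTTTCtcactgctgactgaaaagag
Ifit3b, chr19:34607783-34607832 (+): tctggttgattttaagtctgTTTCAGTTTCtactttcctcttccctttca
Isg15, chr4:156200855-156200904 (-): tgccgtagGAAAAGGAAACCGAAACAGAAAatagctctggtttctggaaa
Lgals9, chr11:78984950-78984999 (-): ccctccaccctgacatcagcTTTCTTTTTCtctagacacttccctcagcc
Gbp2, chr3:142620584-142620633 (+): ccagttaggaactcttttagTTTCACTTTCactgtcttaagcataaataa
The last capital of these stretches lies 75, 144, 56, 45 and 49 bases before the start, in that order. The stretch of Ifit3 (chr19:34583387-34583436) has the same letters as that of Ifit3b. The differences were -2.84 for Ifit1, -2.39 for Ifit3b, -2.32 for Isg15, which encodes a ubiquitin-like modifier, -2.26 for Lgals9, which encodes galectin 9, and -2.25 for Gbp2, which encodes a guanylate-binding protein. A match is a description of the letters and does not show that a factor binds there.

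Antigen presentation genes followed the effectors, with a narrower spread of the mean level between replicates. Of 21 tested, 18 fell and 1 rose, with a median of -0.82. In 15 of the 21 the STHdhQ7 samples were below all 45 STHdhQ111 samples, against 10.7% of all genes. Psmb8 and Psmb10 encode catalytic subunits of the immunoproteasome. Psmb10 was at 8.34, 7.71 and 7.74 against 9.43, 9.33 and 9.63 (difference -1.53, SE 0.15), and Psmb8 fell by 1.34. H2-T22, a nonclassical class I gene, was at 9.12, 8.95 and 9.04 against 10.37, 10.28 and 10.46 (difference -1.33, SE 0.081). Nlrc5, the transactivator of class I genes, fell by 1.31. The neighbouring class I gene H2-T23 rose by 0.39 (SE 0.11, adjusted p = 0.0030). The mean level over the list was 8.16, 8.19 and 8.17 in the STHdhQ7 samples, so replicate 1 did not stand apart in the mean. In Psmb10 it was the STHdhQ7 sample nearest to the STHdhQ111 values.

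Chemokines and cytokines were mixed, with 9 of 18 lower and 4 higher. Ccl5, an attractant of T cells, was at 8.38, 7.43 and 7.73 in STHdhQ7 and at 10.19, 10.13 and 10.42 in STHdhQ111 (difference -2.40, SE 0.19, adjusted p = 1.2e-13). Cxcl10, a chemokine named for its induction by interferon gamma, fell by 2.18 and Ccl7, a monocyte attractant, by 1.45. Cx3cl1, the membrane-bound chemokine fractalkine, was higher at 9.91, 10.39 and 10.33 against 9.22, 9.15 and 9.12 (difference 1.05, SE 0.095). Csf1, the growth factor of macrophages, rose by 0.58.

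Adhesion genes were on the whole higher in STHdhQ7 cells. Of 161 tested members (244 in the table) of the adhesion lists, 89 (55.3%) rose and 19 (11.8%) fell, with a median difference of 0.28. In 67 of the 161 all STHdhQ7 samples lay above all STHdhQ111 samples, against 12.4% of all genes. Under quantile normalization the split was 84 higher and 36 lower. When a mean of at least 6 over all 48 samples was required, 53 were called, 44 higher and 9 lower. That mean is set mostly by the 45 STHdhQ111 samples, so the stricter minimum removes genes that are low in the mutant line.

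Among 16 cadherins and related proteins, which join cells through calcium-dependent contacts, 11 rose and 2 fell. Dchs1, a very large cadherin of the planar polarity system, was at 9.37, 8.99 and 9.67 in STHdhQ7 and at 3.89, 3.64 and 3.75 in STHdhQ111 (difference 5.59, SE 0.17, adjusted p = 4.6e-26). Cdh2, the N-cadherin of neural cells, was at 11.70, 11.92 and 12.02 against 10.23, 10.18 and 10.07 (difference 1.72, SE 0.081). Neither pair of groups overlapped, and both genes also lay above all compound samples. Celsr2, a seven-pass cadherin, was at 6.23, 6.18 and 8.69 against 3.80, 3.60 and 3.28 (difference 3.47, SE 0.31), and replicate 3 was far above the other STHdhQ7 samples. Cdh11, a cadherin of mesenchymal cells, rose by 2.31. Cdh17, a cadherin of liver and intestine, fell by 0.88.

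Protocadherins, which give neighbouring neurons distinct surface identities, had a median near 0, with 16 of 36 higher and 6 lower. Pcdhgb2 was at 8.40, 9.48 and 9.29 against 4.76, 4.05 and 3.74 (difference 4.87, SE 0.23). Pcdhgb7 of the same cluster was at 4.81, 4.67 and 4.70 against 5.84, 5.71 and 5.64, so it fell by 1.00 on the log2 scale (SE 0.12). These cluster members share their last exons and overlap on the same strand, so the division of reads between them is uncertain. Pcdh7, which lies outside the clusters, was at 9.19, 9.26 and 9.28 against 6.51, 6.37 and 6.39 (difference 2.82, SE 0.13). Desmosomal plaque genes went opposite ways. Pkp1, which encodes plakophilin 1, rose by 2.43, and Dsp, which encodes desmoplakin, was at 9.12, 9.14 and 9.46 against 10.81, 10.57 and 10.51 (difference -1.39, SE 0.090).

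Of 18 integrins, the receptors that bind matrix, 13 rose and 2 fell, with a median of 0.65. Itga7, a laminin receptor chain, was at 10.94, 10.54 and 10.52 in STHdhQ7 and at 6.80, 6.88 and 6.71 in STHdhQ111 (difference 3.87, SE 0.20, adjusted p = 2.4e-19). Itga3, Itga6 and Itgb4, which also encode chains of laminin receptors, rose by 1.15, 1.12 and 1.73. Itgb7, a chain of leukocyte homing receptors, was at 6.57, 6.36 and 6.72 against 7.92, 7.85 and 7.88 (difference -1.33, SE 0.13). The groups of both Itga7 and Itgb7 were fully separate, and the compound samples of STHdhQ111 cells reached 8.07 for Itga7 and began at 7.61 for Itgb7.

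Adhesion molecules of the immunoglobulin type gave 15 higher and 2 lower of 22. Vcam1, the ligand of leukocyte integrins, was at 9.07, 8.92 and 8.85 against 6.36, 6.17 and 6.21 (difference 2.70, SE 0.16). Cadm1, a synaptic and epithelial adhesion molecule, was at 10.72, 10.67 and 10.69 against 8.49, 8.26 and 8.16 (difference 2.39, SE 0.091). Mcam rose by 2.24 and L1cam, an axon growth molecule, by 1.75, while Cd47, a signal against phagocytosis, fell by 0.55. Of 16 ephrins and Eph receptors, which guide axons and set tissue borders by contact, 11 rose and 0 fell. Epha4 rose by 2.47 (SE 0.17) and Efnb2 by 1.14 (SE 0.087). Among semaphorins, plexins and neuropilins 14 of 27 rose and 3 fell. Sema3e, a secreted repellent of axons and vessels, was lower at 7.54, 7.81 and 7.98 against 10.16, 10.11 and 10.01 (difference -2.32, SE 0.091). Nrp2, a neuropilin receptor chain, rose by 1.16. Of 16 junction channel and tight junction genes 7 (43.8%) rose and 2 (12.5%) fell.

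Matrix genes changed in both directions. Of 181 tested (219 in the table), 89 (49.2%) rose and 48 (26.5%) fell, the latter share being that of all genes. The 10 fibrillar collagens, the main load-bearing fibres of connective tissue, had 4 higher and 3 lower, with unlike behaviour of the partner chains of type I collagen. Col1a2 (chromosome 6, 4504814 to 4541544) was at 10.32, 10.28 and 10.40 in STHdhQ7 and at 13.08, 12.98 and 13.03 in STHdhQ111 (difference -2.69, SE 0.084, adjusted p = 5.8e-26). Col1a1 was at 14.31, 14.81 and 14.85 against 14.74, 14.50 and 14.67 (difference 0.02, SE 0.12, adjusted p = 0.90). The groups overlapped in Col1a1 and were separated by more than 2.5 in Col1a2. Col3a1 overlapped too (difference 0.08, adjusted p = 0.64). The sign of the Col1a1 and Col3a1 differences turned under other settings. Col5a1 rose by 0.51 and Col5a2, another chain of the same collagen, fell by 0.49.

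The 3 main chains of type VI collagen, a microfibril around cells, all fell. Col6a1 was at 12.19, 12.43 and 12.47 against 13.89, 13.77 and 13.86 (difference -1.48, SE 0.085), and Col6a2 and Col6a3 fell by 1.59 and 2.14. Basement membrane genes were mostly higher, with 14 of 20 rising, 4 falling and a median of 0.75. Col18a1, the source of endostatin, was at 12.07, 11.89 and 11.89 against 8.94, 8.74 and 8.81 (difference 3.12, SE 0.14). Col4a6 rose by 2.97, and Lamb1, a beta chain of laminin, by 1.60, while the alpha chain Lama4 fell by 1.16. In Col18a1, Col4a6 and Lamb1 all STHdhQ7 samples were above all STHdhQ111 and compound samples.

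Glycoproteins of elastic fibres and the fibronectin type held 9 higher (37.5%) and 8 lower (33.3%) of 24. Tnc, the tenascin of germinal zones and injured tissue, was at 11.61, 11.86 and 11.79 in STHdhQ7 and at 7.88, 7.51 and 7.35 in STHdhQ111 (difference 4.17, SE 0.24, adjusted p = 7.2e-18). Aebp1, a collagen-binding protein of fibroblasts, was at 10.05, 10.15 and 10.23 against 12.90, 12.89 and 12.88 (difference -2.75, SE 0.066). Both were separated from all compound samples. Fbn2, Fbln1 and Fbln2 of the fibrillin and fibulin families fell by 2.08, 2.04 and 1.43. Fbln5 and Ltbp4, which help assemble elastin, rose by 0.96 and 1.71. Fn1, fibronectin itself, overlapped between the lines at 15.15, 15.39 and 15.38 against 15.47, 15.42 and 15.30 (difference -0.09, adjusted p = 0.42). Under quantile normalization its difference was -0.77 and was called.

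Small leucine-rich proteoglycans, many of which coat collagen fibrils, went both ways. Aspn was at 8.58, 9.29 and 9.06 against 11.70, 11.71 and 11.69 (difference -2.73, SE 0.18), Bgn (biglycan) fell by 2.25 and Ogn by 1.67. Others of this class were added after their values were seen. Omd fell by 1.07. Prelp rose by 1.00, at 7.83, 9.13 and 8.92 against 7.72, 7.61 and 7.55, and Fmod rose by 0.70, at 3.76, 4.84 and 4.80 against 3.89, 3.72 and 3.70. In both, STHdhQ7 replicate 1 lay far below replicates 2 and 3, and in Fmod it lay among the STHdhQ111 samples. Dcn (decorin) overlapped between the lines (difference -0.07, SE 0.15). Vcan, the large hyaluronan-binding proteoglycan versican, and Hapln4, a link protein of brain matrix, rose by 1.79 and 2.38. Glypicans, which are tied to the cell surface, went both ways, with Gpc1 rising by 1.21 and Gpc4 falling by 1.26. Over all 26 proteoglycans and hyaluronan enzymes 14 rose and 8 fell. The collagen cross-linking oxidase gene Lox was lower at 11.18, 11.62 and 11.42 against 12.66, 12.58 and 12.53 (difference -1.18, SE 0.11), as was Loxl4, while the hydroxylase genes P4ha1 and Plod2 rose by 0.89 and 1.10. Of the proteases and inhibitors 19 of 37 rose and 7 fell. Serpinf1, a secreted serpin, rose by 2.35 and the gelatinase gene Mmp2 fell by 1.34. Of the matricellular proteins, which signal rather than bear load, Ctgf and Spp1 rose by 1.54 and 1.73 and Tgfbi fell by 1.95.

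**Figure D3:**
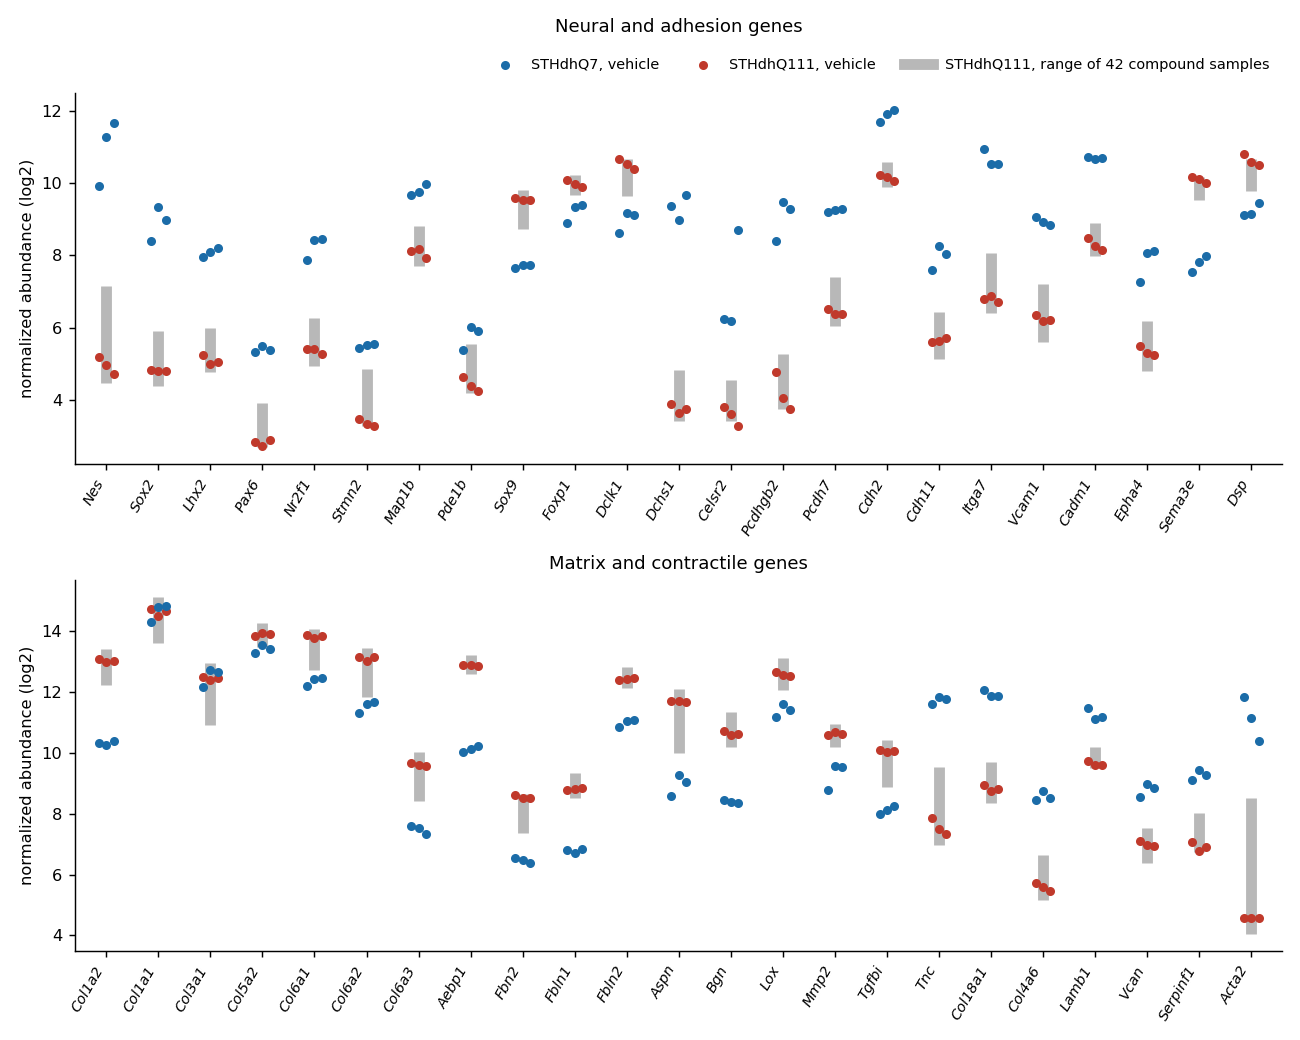
Normalized abundance (log2, vertical axes) of 23 neural and adhesion genes (top) and 23 matrix and contractile genes (bottom) in each STHdhQ7 (blue) and STHdhQ111 (red) vehicle sample, replicates 1 to 3 from left to right, over the range of the 42 STHdhQ111 compound samples (grey). Nes lies at 9.93 or more in blue and at 5.20 or less in red, Col1a2 lies lower in blue, and Col1a1 overlaps.

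Mitochondrially encoded genes rose and nuclear genes of the mitochondrion were divided. All 13 protein-coding genes of the mitochondrial DNA rose, 9 of them by more than 1, with a median of 1.18. In all 13 the STHdhQ7 samples lay above all 45 STHdhQ111 samples, against 12.4% of all genes. ND1, a core subunit of complex I, was at 16.17, 16.11 and 16.18 in STHdhQ7 and at 14.57, 14.57 and 14.63 in STHdhQ111 (difference 1.56, SE 0.16, adjusted p = 5.3e-11). ND3, of the same complex, was at 11.73, 12.24 and 12.08 against 10.10, 9.88 and 9.93 (difference 2.04, SE 0.25). CYTB, the mitochondrially encoded subunit of complex III, was at 16.37, 16.36 and 16.46 against 15.08, 15.11 and 15.18 (difference 1.28, SE 0.19). None of these groups overlapped. The smallest differences were 0.63 in ND5 (SE 0.16, adjusted p = 0.0012) and 0.69 in COX1 of complex IV (SE 0.16, adjusted p = 0.00038). Under quantile normalization both were smaller, at 0.30 and 0.28, and were not called. The remaining complex I genes ND2, ND4, ND4L and ND6 rose by 1.65, 1.18, 1.46 and 0.93, COX2 and COX3 by 1.13 and 1.07, and ATP6 and ATP8 of ATP synthase by 0.87 and 1.25.

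Mitochondrial transcripts are cut from long precursors, and ND4L overlaps ND4 and ATP8 overlaps ATP6 on the same strand, so these genes are not independent. Libraries were made from polyadenylated RNA. The mean level over the 13 genes was 14.20, 14.34 and 14.29 in the STHdhQ7 samples and 13.02, 13.06 and 13.11 in the STHdhQ111 vehicle samples. Over the single compound samples it ran from 11.96 to 13.43, and all STHdhQ7 samples were above this range. Averaged over replicates, it was lowest with selisistat and highest with cysteamine.

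Nuclear subunits of the same complexes did not share the rise. Of 37 nuclear complex I genes 6 rose and 6 fell (median -0.06), of 14 complex II and III genes 3 rose and 2 fell, of 11 complex IV genes 4 rose and 0 fell (median 0.11), and of 19 ATP synthase genes 1 rose and 7 fell (median -0.07). None of these 81 genes passed 1 in either direction. Atp5b, the catalytic beta subunit of ATP synthase, was at 14.13, 14.06 and 14.12 against 13.74, 13.70 and 13.82 (difference 0.35, SE 0.058). Cox6a1 of complex IV rose by 0.45 and Ndufv2 of complex I by 0.27, while Ndufv3 fell by 0.58 and Uqcrb of complex III by 0.37. Of 41 assembly factors of the chain 14 fell and 4 rose, with Coa5 falling by 0.76 (SE 0.047). Of 77 mitochondrial ribosomal proteins 21 fell and 12 rose, close to the shares over all genes for the falls. Over all 276 tested genes (281 in the table) of the mitochondrial lists 59 (21.4%) were higher and 64 (23.2%) lower. The count of lower genes was 42 without STHdhQ111 replicate 3, in which most nuclear lists stood highest among the vehicle samples. That count was 114 when the compound samples at the lowest doses took the place of the STHdhQ111 vehicle samples.

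Genes that maintain or transcribe mitochondrial DNA were mostly level, with 4 of 24 higher and 2 lower. Tfam, which packages mitochondrial DNA, overlapped between the lines (difference 0.06, adjusted p = 0.42). Polrmt, the mitochondrial RNA polymerase, was at 9.20, 9.26 and 9.30 against 8.80, 8.87 and 8.83 (difference 0.42, SE 0.063), and Lrpprc, which stabilizes mitochondrial messages, rose by 0.65. Ppargc1a, which encodes the coactivator PGC-1 alpha, was lower at 6.65, 6.73 and 6.67 against 7.77, 7.79 and 7.59 (difference -1.03, SE 0.083, adjusted p = 1.3e-13). The mitophagy genes Pink1, a kinase that marks damaged mitochondria, and Bnip3l, a receptor for the autophagy machinery, fell by 0.75 and 0.64, and over their list of 20 genes of fusion, fission and mitophagy 8 fell and 5 rose. Of 20 tricarboxylic acid cycle genes 7 (35%) rose and 4 (20%) fell, near the shares over all genes, with Dlst and Fh1 rising by 0.46 and 0.43.

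**Figure D4:**
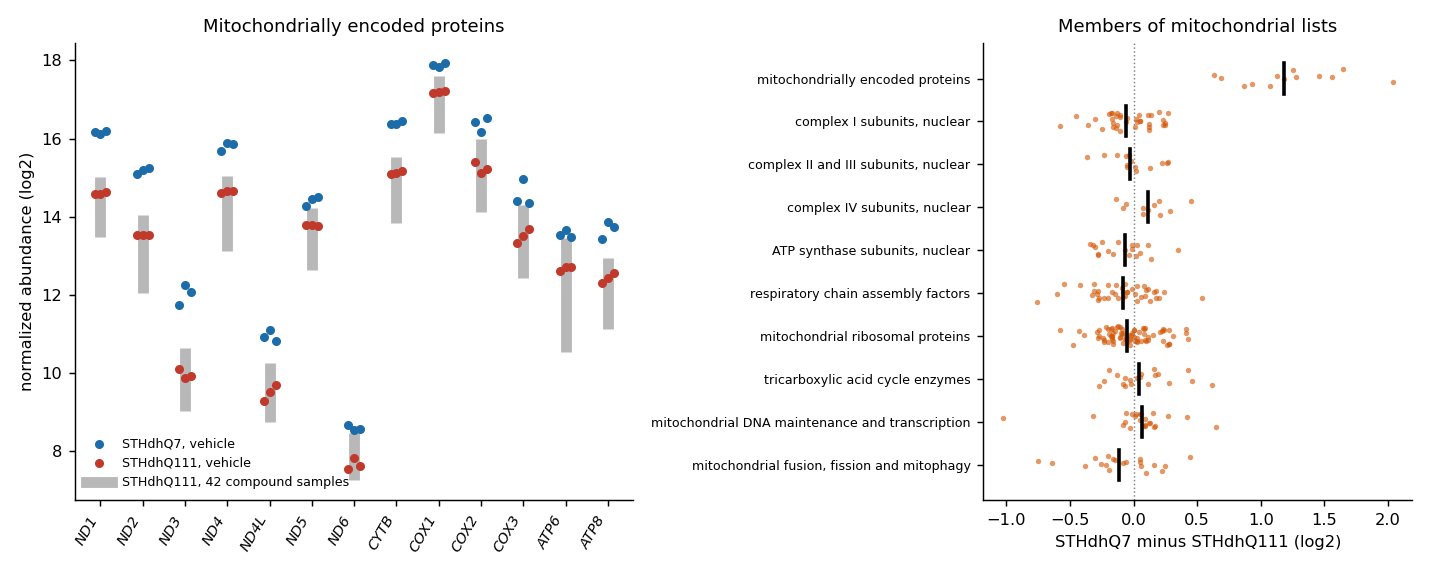
Left, normalized abundance (log2) of the 13 mitochondrially encoded genes in the STHdhQ7 (blue) and STHdhQ111 (red) vehicle samples, replicates 1 to 3 from left to right, over the range of 42 compound samples (grey), with blue above red and grey in every gene. Right, log2 differences (STHdhQ7 minus STHdhQ111) of single genes in 10 mitochondrial lists with the median as a bar, which is 1.18 for the encoded genes and between -0.11 and 0.11 for the nuclear lists.

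Neural genes were more often higher than lower in STHdhQ7 cells. Of 125 tested (182 in the table), 65 (52%) rose and 27 (21.6%) fell, and the progenitor genes led with 20 of 27 higher, 5 lower and a median of 0.63. Nes, the intermediate filament nestin of neural progenitors (chromosome 3, 87971078 to 87980451), was at 9.93, 11.27 and 11.66 in STHdhQ7 and at 5.20, 4.97 and 4.72 in STHdhQ111 (difference 5.99, SE 0.34, adjusted p = 4.6e-18). Replicate 1 was the lowest of the STHdhQ7 samples and still far above every STHdhQ111 sample, the highest of which was a compound sample at 7.14. Sox2, the factor that keeps progenitors undifferentiated, was at 8.41, 9.34 and 8.99 against 4.84, 4.81 and 4.79 (difference 4.10, SE 0.17). Lhx2 and Pax6, patterning factors of the dorsal forebrain and eye field, rose by 2.99 and 2.59, with Pax6 at 5.32, 5.50 and 5.39 against 2.83, 2.73 and 2.88. Sox9, a factor of progenitors and glia, went the other way at 7.66, 7.74 and 7.73 against 9.60, 9.52 and 9.54 (difference -1.84, SE 0.075). When a mean of at least 6 was required, 52 neural genes were called, 29 higher and 23 lower, so the lean towards higher values was much smaller.

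Transcription factors of the ventral forebrain and striatum did not follow the progenitor genes, with 4 of 18 higher and 7 lower. Nr2f1, a factor of caudal forebrain identity, was at 7.86, 8.43 and 8.45 against 5.40, 5.41 and 5.27 (difference 2.89, SE 0.15). Meis2 and Sp8, factors of the ganglionic eminences, rose by 1.03 and 1.66. Foxp1, a factor of striatal projection neurons, was lower at 8.90, 9.33 and 9.39 against 10.09, 9.98 and 9.89 (difference -0.78, SE 0.076), and Ebf1, a factor of direct-pathway neurons, fell by 0.68. Genes of mature striatal neurons were mostly low in both lines, and 17 of 27 medium spiny neuron genes were under the minimum. Picked from them because they define these neurons, the dopamine receptor gene Drd1 averaged -2.18 in both lines, the adenosine receptor gene Adora2a averaged 0.31 in STHdhQ7 and 0.14 in STHdhQ111, and the glutamate decarboxylase gene Gad1 averaged -1.15 in both. Of the 10 tested, Pde1b and Pde10a, striatal phosphodiesterases, rose by 1.35 and 0.65 and Arpp19 fell by 0.52.

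Among the 30 pan-neuronal genes 17 rose and 6 fell. Map1b, a microtubule protein of growing axons, was at 9.68, 9.75 and 9.98 against 8.13, 8.18 and 7.93 (difference 1.72, SE 0.10), and Stmn2, a tubulin-binding protein of neurons, and Ncam1 rose by 2.15 and 1.55. Dclk1, a microtubule-associated kinase, was lower at 8.63, 9.16 and 9.11 against 10.67, 10.53 and 10.40 (difference -1.57, SE 0.094). In all 4 the vehicle groups were separate. Of 42 growth factor genes 20 rose and 8 fell. Igf1 was at 6.25, 8.88 and 7.20 against 4.21, 3.78 and 4.03 (difference 3.44, SE 0.30), with a wide spread among the STHdhQ7 samples. Flt1, a receptor of vascular growth factor, was at 8.45, 8.13 and 8.15 against 5.76, 5.54 and 5.46 (difference 2.65, SE 0.12). Fgf7, a fibroblast growth factor, fell by 1.70.

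Beside the neural genes stood large differences in genes of other cell types. Acta2, the smooth muscle actin of contractile and mesenchymal cells, was at 11.84, 11.17 and 10.39 in STHdhQ7 and at 4.58, 4.57 and 4.56 in STHdhQ111 (difference 6.56, SE 0.44, adjusted p = 6.2e-16). Tagln and Myl9 of the same contractile apparatus rose by 2.03 and 1.80. The 20 tested mesenchymal and pericyte markers were not shifted together, since 5 rose and 10 fell, among them Pdgfra (-1.33), Foxc1 (-1.31) and Snai2 (-1.06), and their mean level ran from 8.55 to 8.72 in STHdhQ7 and from 8.41 to 8.45 in STHdhQ111. Their part in the neural and matrix differences was not tested. Ptprc, which encodes the leukocyte antigen CD45, was lower at 7.36, 7.88 and 8.33 against 10.54, 10.75 and 10.47 (difference -2.73, SE 0.18). The leukocyte markers Aif1, Cx3cr1, P2ry12, Itgam and Spi1 were under the minimum, with no sample of either line above 1, and of the 4 tested markers of that list 1 rose and 1 fell. Of 6 tested astrocyte markers 2 rose and 1 fell, and of 5 endothelial markers 2 rose and 0 fell. Hox genes, which are silent in the normal forebrain, were detected in both lines, and 17 of 26 fell and 1 rose. Hoxc9 was at 5.43, 6.00 and 6.04 against 6.79, 6.76 and 6.87 (difference -0.98, SE 0.14), and Hoxb13 rose by 2.15. In bulk RNA, fewer cells of a type and less RNA per cell cannot be told apart.

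The genes with the largest rises at any mean were spread over these families, and were ranked by their values. Tenm3, a teneurin that matches synaptic partners, was at 11.07, 12.32 and 13.64 against 3.61, 2.95 and 2.64 (difference 9.28). Crabp1, a retinoic acid binding protein, was at 13.10, 13.17 and 12.29 against 3.90, 3.51 and 3.79 (difference 9.12). In both genes the groups were far apart, and Tenm3 spread widely among the STHdhQ7 samples. Podxl, a sialomucin, and Dmrta2, a cortical progenitor factor, rose by 7.08 and 6.62. Lhx1, a LIM homeodomain factor, was at 6.75, 6.39 and 8.76 against 2.44, 2.21 and 1.89 (difference 5.12), with replicate 3 the highest. Kif26b was at 6.94, 11.12 and 10.88 and Lrp2 at 8.81, 10.63 and 11.22 in the STHdhQ7 samples, with replicate 1 the lowest in each, against values of 4.04 or less in STHdhQ111. Where the mean over all samples reached 6, the largest rises included, beside those of Tnc and other genes above, the netrin receptor gene Unc5b (4.50), Fhl1 (3.56) and the progenitor antigen gene Cd34 (3.52). The largest falls outside the lists were in Cyp1b1, a cytochrome of steroid and xenobiotic metabolism (-2.56), Thbd, the thrombin receptor thrombomodulin (-2.52), and Sim2, a midline transcription factor (-2.52).

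Metabolic and stress pathways gave some of the most one-sided lists. Of 25 genes of sterol biosynthesis and its regulation 22 (88%) rose and 0 fell, with a median of 0.46. The enzyme gene Tm7sf2 was at 8.60, 8.41 and 8.44 against 6.92, 6.95 and 7.15 (difference 1.48, SE 0.12), and Ebp, another enzyme gene of the pathway, rose by 1.03. Hmgcs1 did not pass the test (difference 0.11, adjusted p = 0.24). Of 40 targets of ATF4, the factor induced when amino acids are short, 34 (85%) rose and 0 fell, with a median of 0.62. Trib3 was at 9.08, 8.61 and 8.59 against 7.06, 6.96 and 6.83 (difference 1.81, SE 0.21), and Vldlr, Stc2 and Cth rose by 1.97, 1.90 and 1.37. In 3 of the 40 the STHdhQ7 samples lay above all STHdhQ111 samples, against 12.4% of all genes. Some compound samples reached higher, up to 10.13 for Trib3. Chaperones of the endoplasmic reticulum rose in 15 of 20 cases, with Hspa5 (BiP) at 13.36, 13.33 and 13.37 against 12.66, 12.71 and 12.71 (difference 0.66, SE 0.084). Of 20 heat shock chaperones 8 (40%) rose and 6 (30%) fell.

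Core autophagy genes leaned the other way, with 21 of 39 lower, 9 higher and a median of -0.22. Gabarapl1, a ubiquitin-like protein of autophagosome membranes, was at 9.14, 9.32 and 9.35 against 10.17, 10.20 and 10.24 (difference -0.94, SE 0.066), and Atg12 fell by 0.68, while Rb1cc1 of the initiation complex rose by 0.61. Lysosomal genes had 25 of 46 higher and 11 lower. The protease gene Ctsd rose by 0.76 and another protease gene, Ctsh, fell by 1.54. The sialidase gene Neu1 rose by 0.85 and Cln3, a lysosomal membrane protein gene, fell by 1.31. Among glycolysis genes 16 of 26 rose and 4 fell, led by the glucose transporter genes Slc2a3 (2.17) and Slc2a1 (1.12). Gapdh overlapped between the lines (difference -0.10, adjusted p = 0.25), and was called at -0.24 under quantile normalization and at -0.17 against the low-dose compound samples. Of 29 p53 targets 17 rose and 5 fell, with Cdkn1a, the cell cycle inhibitor p21, rising by 0.89 and Mdm2, the ligase that removes p53, by 0.88, while Trp53 itself did not pass the test (-0.05, adjusted p = 0.40). Of 38 mitosis genes 12 (31.6%) rose, near the share over all genes (29.2%), and 4 (10.5%) fell, below that share (26.6%).

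Developmental signalling genes were more often higher than lower. Of 46 Wnt genes 25 (54.3%) rose and 10 (21.7%) fell, against 29.2% and 26.6% of all genes. Among them were the ligand genes Wnt7a (1.86) and Wnt10a (-2.17) and the secreted inhibitor gene Sfrp1 (1.79). Of 40 genes of TGF-beta and BMP signalling 21 (52.5%) rose and 9 (22.5%) fell. Inhbb, an activin subunit gene, was at 9.43, 10.09 and 9.55 against 4.52, 4.27 and 4.33 (difference 5.31, SE 0.17), and the BMP antagonist gene Grem1 rose by 1.98, while the receptor genes Tgfbr2 and Tgfbr3 fell by 1.21 and 1.53. Of 32 immediate-early and ERK feedback genes 16 (50%) rose and 6 (18.8%) fell. Etv4 and Etv5, transcription factors downstream of ERK, rose by 1.75 and 1.50. Actin cytoskeleton genes rose in 16 of 26 cases and fell in 2. Falls prevailed among 27 antioxidant genes of the NRF2 pathway (12 lower, 4 higher, Fth1 -0.63, Slc7a11 1.24) and 26 genes of the BCL2 family and caspases (12 lower, 6 higher, Birc3 -1.28, Bok 1.36). Of 77 cytosolic ribosomal proteins 18 (23.4%) fell and 1 (1.3%) rose, so the share of falls was not above that of all genes (26.6%). Among the vehicle samples this list had its highest mean level in STHdhQ111 replicate 3 (12.08, against 11.69 and 11.90 in replicates 1 and 2). STHdhQ7 samples ran from 11.74 to 11.78, and compound samples reached 12.44.

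Differences also varied by chromosome. On chromosome 17, 387 (59.6%) of 649 tested genes rose and 70 (10.8%) fell, against 29.2% and 26.6% over all genes, and the median difference was 0.23. For genes with a mean of at least 6 it was 0.28, 0.25 and 0.24 on the 3 collection days. All 44 overlapping windows of 50 genes along chromosome 17 had medians above 0, from 0.06 to 0.35. Against each of the 15 STHdhQ111 conditions the median over these genes stayed between 0.22 and 0.27. The antigen presentation genes H2-T22 and Psmb8, which fell, also lie on this chromosome. On chromosome 12, 48.1% of genes rose and the median was 0.13, but its windows went both ways. The 11 windows that start before position 57230412 had medians from -0.23 to -0.03, and the 16 others had medians from 0.13 to 0.41. On chromosome 10, 38.1% rose, the median was 0.09 and 38 of 45 windows lay above 0. Chromosomes 6, 13 and X lay lower, with medians of -0.10, -0.07 and -0.09 and with 41.8%, 37% and 38.6% of genes falling, and 0 of their windows (44, 32 and 27) had a median above 0. With no minimum mean, which admits genes at the bottom of the scale, the medians were 0.13 on chromosome 17, 0.05 on chromosome 12, -0.01 on chromosomes 6 and 13 and 0.00 on X. The source of these shifts was not tested.

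**Figure D5:**
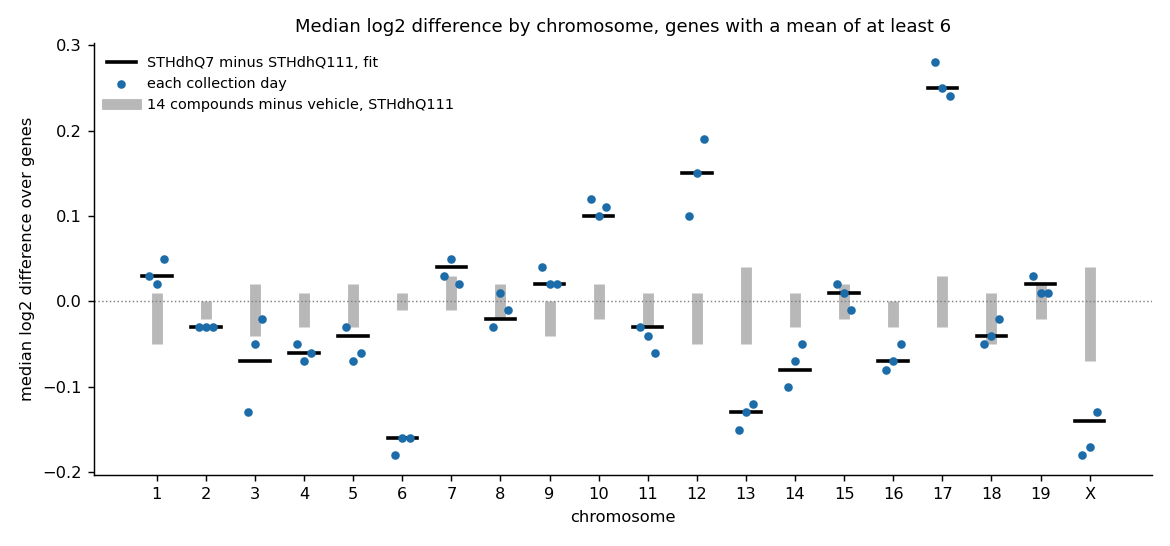
Median log2 difference over genes with a mean of at least 6 (vertical axis) for each chromosome (horizontal axis), as the fitted STHdhQ7 minus STHdhQ111 difference (black bar), on each of the 3 collection days (blue points), and as the range of the 14 compounds minus vehicle within STHdhQ111 cells (grey). Chromosome 17 lies at 0.25, outside its compound range of -0.03 to 0.03, and chromosome 6 lies at -0.16.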

How the data were processed

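RNA-Seq values of 48 samples were read from the single deposited table, which holds log2 normalized abundances made by the authors. The submitters' notes name Trimmomatic 0.36, RSEM, DESeq2 and the build GRCm38.p5, and reads were single-end and strand-specific. The transformation behind the log2 values is not given in the sources used here, and low values vary little in it. No counts were used, so depth and counting error are unknown.

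Of 27281 genes, 18178 carried a symbol and 13409 had a mean of at least 1 over all samples and were tested. All 48 samples entered a linear model of 16 conditions plus the day of collection, fitted in R 4.3.3 with limma 3.58.1 (30 residual degrees of freedom). Moderated variances followed a trend on the mean level, p-values were adjusted after Benjamini and Hochberg, and a gene was called at an adjusted p under 0.05. The spread is pooled over all conditions, so it can understate that of genes that vary among STHdhQ7 samples. The collection day equals the replicate number in both groups and is the block. Deviations of same-numbered samples from the means of their groups correlated at -0.134, 0.0427 and -0.135.

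Gene lists, members and the naming rule were chosen with earlier results of these data known. The rule admits huntingtin, all mitochondrially encoded genes and markers, and from each other list up to 4 called members with the largest rise, up to 4 with the largest fall and up to 2 uncalled members with the highest mean. It further admits the 15 largest rises and falls at a mean of at least 6. Isg15, Ifit3, Lgals9, Gbp2, Drd1, Adora2a, Gad1, Omd, Prelp, Fmod and the largest rises at any mean were named after their values were seen. Of the listed members, 69 were not matched to the table. Where an entry carries several symbols, it was counted under 1. Gene positions are from GENCODE on GRCm38 and promoters from RefSeq on GRCm38.p6. On simulated data 177 of 200 changed genes among 13409 were called, and 5.35% of calls were unchanged genes. The simulated noise was independent, with the same spread in every condition and no day effect. Far fewer genes were changed than are called in the data, so 5.35% does not measure the false calls there. Alternatives were other minimum means, the block left out or set by replicate number, only the compared samples, the time slot as a term, 2 other normalizations, no variance trend, other STHdhQ111 samples as control, and each replicate left out. Figures were drawn with matplotlib 3.10.9. Metabolite and protein data of the study were not analysed here. Results for some genes are not reported here.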

Additional observations from a re-analysis of the deposited data

How the results depend on the processing

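Of 3614 differences of named genes under the alternatives, 3587 kept their direction and their side of the threshold, 9 lost their call, 10 gained one and 8 turned direction, 0 of the last in called genes. Among uncalled genes, Col1a1 was at -0.27 under quantile normalization and -0.01 against the low-dose compound samples, and Col3a1 at -0.07 against the latter. Leaving out 1 replicate at a time gave from -0.09 to 0.21 for Col1a1 and from -0.02 to 0.27 for Col3a1. Across the alternatives the total of called genes ran from 5958 to 8759, and was 7662 with no replicate block and 7496 with the replicate number as the block. Higher calls outnumbered lower calls in the report (3916 against 3567). The order turned at a minimum mean of 6 (2834 against 3124) and under quantile normalization (3642 against 4365). Of the genes called in the report, 5907 were also called with only the compared samples and 6987 with the low-dose samples as control. At a minimum mean of 6, 459 genes passed 1, 5 interferon genes rose, 53 adhesion genes were called (44 higher, 9 lower), and 52 neural genes were called (29 higher, 23 lower). Quantile normalization gave 36 lower adhesion genes. Lower mitochondrial genes numbered 114 with the low-dose control and, with 1 replicate left out, from 42 (without STHdhQ111 replicate 3) to 70.

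Chromosome medians with no minimum mean were -0.01 (chromosomes 6 and 13), 0.05 (12), 0.13 (17) and 0.00 (X). At a mean of 6 they were -0.16 (6), -0.13 (13), 0.25 (17) and -0.14 (X). Under quantile normalization they were -0.14 (6), 0.09 (12), -0.12 (13), 0.21 (17), -0.13 (X) and 1.03 (mitochondrial). Against the low-dose samples they were -0.09 (13), 0.22 (17) and 1.11 (mitochondrial). With 1 replicate left out they ran from -0.08 to -0.07 (13), from 0.22 to 0.24 (17) and from 1.15 to 1.25 (mitochondrial, the highest without STHdhQ7 replicate 1). Counts per list without a STHdhQ7 replicate were added after the data were seen. A pseudocount was not varied, since the table is on a log2 scale. Depth is unknown, and 1 line per genotype limits every comparison.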

Other observations

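The table also holds 9103 genes without a symbol, 2205 of which reached the minimum mean and were fitted with the others as an addition made after the data were seen. Of these 2205, 380 were called, 203 higher and 177 lower in STHdhQ7 cells, a smaller share than the 55.8% of tested genes with a symbol. By more than 1, 24 rose and 18 fell, also smaller shares than the 3.31% and 2.13% of those genes. mt-Rnr2, the large ribosomal RNA of the mitochondrion (chromosome M, 1094 to 2675), was at 15.32, 15.27 and 15.42 in STHdhQ7 and at 13.73, 13.55 and 13.78 in STHdhQ111 (difference 1.65, SE 0.21, adjusted p = 1.6e-08 from limma). It is not a member of the list of mitochondrially encoded proteins and rose beside it.

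Unprocessed pseudogenes on chromosome 1 between 24612407 and 24615565, in the order Gm10222, Gm28438, Gm10925 and Gm28661, rose by 1.21, 2.16, 1.16 and 1.08. They lie in a nuclear copy of mitochondrial DNA, and short reads may be shared with the mitochondrial genes. Other pseudogenes moved both ways. Gm10163 was at 9.26, 9.10 and 8.82 against 6.56, 5.08 and 4.47 (difference 3.69, SE 0.64). Gm8399 was at 6.83, 6.83 and 6.91 against 9.25, 9.22 and 9.29 (difference -2.40, SE 0.10), and Gm15501 at 8.39, 8.31 and 8.80 against 10.87, 10.80 and 10.70 (difference -2.29, SE 0.15). The groups of these 3 pseudogenes did not overlap.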
